A study of Mus musculus with 16 samples.

Results

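The genes described are 43 genes of the extracellular matrix and of the fibroblasts that make much of it, taken as a listed set and matched by symbol to 43 of the 48709 gene identifiers of the count table. The list was drawn up by name, with earlier results of these data known. RNA was counted in the heart and the liver of 8 untreated females on the C57BL/6J strain, 3 to 6 months old, with each animal giving 1 library per organ. Of these animals 4 were wild type (WT) and 4 were Msr quadruple knockouts (QKO), mice in which the known methionine sulfoxide reductases, enzymes that repair oxidised methionine, were knocked out. The 16 libraries thus form 4 groups of 4 animals, and the labels used here do not name the single alleles. Levels are given in the usual counts-per-million (CPM) unit, on library sizes scaled by TMM (edgeR). Differences are on the log2 scale with their standard error (SE), and p-values come from edgeR's quasi-likelihood test.

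Collagens form the fibrils, networks and basement membranes of the matrix, elastin and fibrillin form its elastic fibres, and adhesive glycoproteins such as fibronectin tie it to integrins on cells. Lysyl oxidases cross-link the fibres, matrix metalloproteinases cut them, and the Timp proteins inhibit those proteases. In the heart this matrix is made mostly by resident fibroblasts, mural cells and endothelium, and it surrounds each muscle fibre with a basement membrane. The healthy liver has little fibrillar matrix, its sinusoids lack a continuous basement membrane, stellate cells and portal fibroblasts make most collagen, and hepatocytes secrete plasma fibronectin. Transforming growth factor beta (TGF-beta) is the best known inducer of these genes in fibrosis.

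The start regions of a few of the genes are shown because members with opposite levels in the tissues can be set side by side. RefSeq promoter windows of GRCm38.p6 were matched for 30 of the 43 genes, in 35 windows of the 250 bases before a start site. The window of Col3a1, a fibrillar collagen that was higher in heart, lies on the plus strand at chr1:45311288-45311537, and that of Mmp14, a membrane-bound metalloproteinase that was lower in heart, on the plus strand at chr14:54431348-54431597. Neither window holds an annotated exon. Capitals mark a CCAAT box (CCAAT or its reverse ATTGG), a GC box (GGGCGG or CCGCCC) or a TATA box (TATAAA or TTTATA), searched on both strands, and neighbouring matches may run together.
Col3a1: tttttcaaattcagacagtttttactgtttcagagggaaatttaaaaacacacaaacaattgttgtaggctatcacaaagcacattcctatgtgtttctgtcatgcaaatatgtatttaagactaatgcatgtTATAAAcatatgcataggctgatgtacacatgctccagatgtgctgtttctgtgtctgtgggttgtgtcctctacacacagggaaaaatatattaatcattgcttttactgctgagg
Mmp14: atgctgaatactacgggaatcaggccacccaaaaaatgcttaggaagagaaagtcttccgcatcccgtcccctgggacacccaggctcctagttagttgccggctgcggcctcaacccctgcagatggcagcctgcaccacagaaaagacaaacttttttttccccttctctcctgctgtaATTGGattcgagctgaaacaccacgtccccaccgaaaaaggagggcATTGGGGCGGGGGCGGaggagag
The Col3a1 window has a GC content of 35.2% and a TATA box alone, and the Mmp14 window has a GC content of 55.2% with CCAAT and GC boxes. Col3a1 is not typical of the members higher in heart: its GC content is the lowest of the 35 windows, and 2 windows hold a TATA box. Nid1, also higher in heart, has a GC content of 64.4% with CCAAT and GC boxes. The pair thus does not stand for members higher or lower in heart. Over all members a CCAAT box was found in 31.4% of the windows against 33.8% of all 32851 windows, a GC box in 54.3% against 32.7%, and a TATA box in 5.71% against 12.4%. Col4a1 and Col4a2 start head to head on opposite strands and overlap by 22 bases at chr8:11312805-11312826 on GRCm38, inside the first exon of each. These matches describe letters in a window and nothing about binding.

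Livers held 37.9 to 67.9 M counts and hearts 42.1 to 72.6 M. The share of the nuclear ribosomal RNA loci Gm42418 and CT010467.1 lay between 0.0671% and 0.178% among livers and between 21.7% and 39.3% in 6 of the hearts. It was 4.98% for WT heart 4 and 0.101% for its QKO counterpart. Msrb2 had 2.51 to 6.24 CPM in WT liver and 0 to 0.0459 CPM in QKO liver, and 12 to 14.6 CPM in WT heart against 0.116 to 0.230 CPM in QKO heart. Msrb3 had 7.77 to 10.8 CPM against 1.68 to 3.07 CPM in liver and 46.4 to 50.2 CPM against 7.43 to 8.69 CPM in heart. Msra was at 48.3 to 61.5 CPM in WT and 31.0 to 36.2 CPM in QKO liver, and at 9.40 to 11.3 CPM and 6.78 to 7.66 CPM in heart. Msrb1 was at 82.4 to 107 CPM in WT and 63.4 to 103 CPM in QKO liver, and at 13.8 to 16.1 CPM and 18.5 to 23.6 CPM in heart, so RNA of both genes was still counted in QKO tissue. Hepatocyte markers stood at 30800 to 44300 CPM in liver and cardiomyocyte markers at 18100 to 22900 CPM in heart, as the tissue labels give them. Pancreatic acinar markers summed to 577 CPM in WT liver 3 and 171 CPM in WT liver 4, against 3.14 to 6.20 CPM in the other livers. Skeletal muscle markers were at 214 CPM in WT liver 4, where the other livers had 0.616 to 18.1 CPM.

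**Figure D1:**
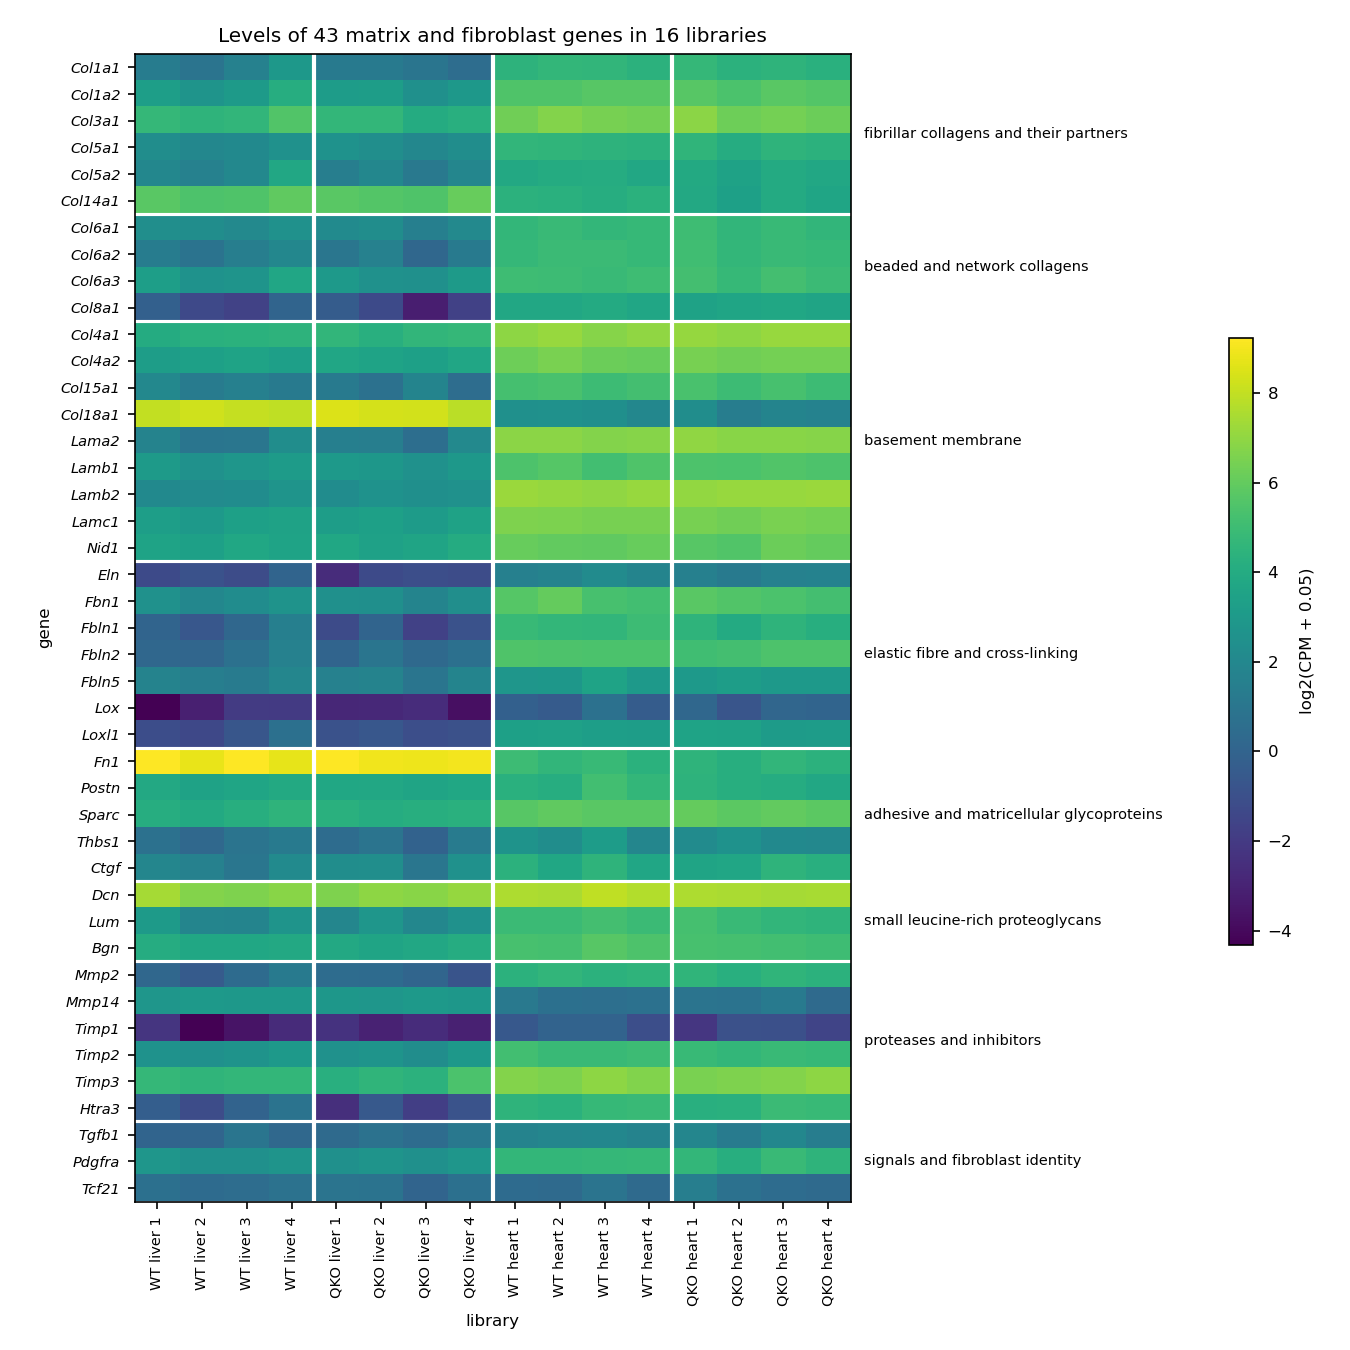
Level of each of the 43 genes (rows, grouped by role) in each of the 16 libraries (columns, 4 per group), as log2(CPM + 0.05) on the colour scale. Fn1 and Col18a1 are bright in the 8 livers and most other genes are brighter in the 8 hearts, while WT and QKO libraries of a tissue look alike at this scale.

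The 43 genes together took 0.248% to 0.318% of the protein-coding count in liver and 0.462% to 0.569% in heart. Without fibronectin (Fn1) and the collagen XVIII chain (Col18a1) the shares were 0.0813% to 0.127% in liver and 0.456% to 0.561% in heart. These shares do not overlap between the tissues, and the liver share rested mostly on those genes. Compared between genes as CPM per kb of the longest coding transcript, decorin (Dcn), a proteoglycan that binds collagen fibrils, stood first in WT heart at 116 ± 15.3 CPM per kb (SD, n = 4). It was followed by the laminin chain Lamb2 at 24.5 ± 1.25, the collagen-binding glycoprotein Sparc at 24.2 ± 1.63 and the protease inhibitor Timp3 at 22.4 ± 2.46 CPM per kb, and the gap between neighbours among the last 3 was no larger than the greater of their SDs. In WT liver Dcn stood at 69.4 ± 19.8, Fn1 at 62.4 ± 11.45 and Col18a1 at 48.04 ± 4.72 CPM per kb, and the next gene, Col14a1, at 7.88 ± 1.30 CPM per kb. With the union of all exons as the length, Fn1 and Col18a1 ranked above Dcn in WT liver, while Dcn again ranked first in WT heart. Lox, a lysyl oxidase, was last in both tissues by either length, with 0.0248 ± 0.0214 CPM per kb in WT liver and 0.204 ± 0.0888 CPM per kb in WT heart.

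The comparison of heart with liver asks where each gene is mainly used, and it was made apart in WT and QKO animals, which share no library. Matrix genes were higher in heart in nearly every role, with fibronectin, collagen XVIII, Mmp14 and collagen XIV as the genes higher in liver. By the means of 4 WT libraries, Lama2 was 37.5-fold, Lamb2 27.1-fold and Htra3 25.5-fold higher in heart, while Col18a1 was 52.7-fold and Fn1 19.9-fold higher in liver. In WT animals 38 of the 43 genes were higher in heart at an adjusted p under 0.05 (edgeR), where 35.6% of all 18204 genes tested were, and 4 were lower, where 36.9% of all genes were. In QKO animals the counts were again 38 and 4, against 37.2% and 37.1% of 18039 genes. The median log2 difference, heart minus liver, was 2.45 in WT and 2.25 in QKO over the 43 genes, and -0.0247 and 0.00941 over all genes tested. The 4 heart libraries lay wholly above the 4 livers for 37 genes and wholly below for 4 in each genotype, where 33.7% and 34.7% of all genes did so in WT and 34.3% and 35.9% in QKO.

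In bulk tissue, more cells of a type and more RNA per cell cannot be told apart. Of 10 other fibroblast markers, which are not among the 43 genes, gelsolin (Gsn) made up most of the sum, and the remaining 9 summed to 63.2 to 91.1 CPM in heart and 3.19 to 16.7 CPM in liver. Smooth muscle and pericyte markers without desmin summed to 509 to 621 CPM in heart and 56.0 to 81.7 CPM in liver. Stellate cell markers were at 196 to 287 CPM in liver and 39.7 to 53.5 CPM in heart, and endothelial markers at 182 to 299 CPM and 203 to 224 CPM. The endothelial sums hide markers that differ in opposite directions. Of these 10 markers, 7 were higher and 2 lower in WT heart (adjusted p under 0.05, edgeR), where 35.6% and 36.9% of all genes were. In QKO heart 6 were higher and 2 lower, where 37.2% and 37.1% of all genes were. Their median log2 difference was 1.29 in WT and 1.04 in QKO. None of these lists had a gene at 0 in all libraries of a tissue. Their part in the differences was not tested.

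**Figure D2:**
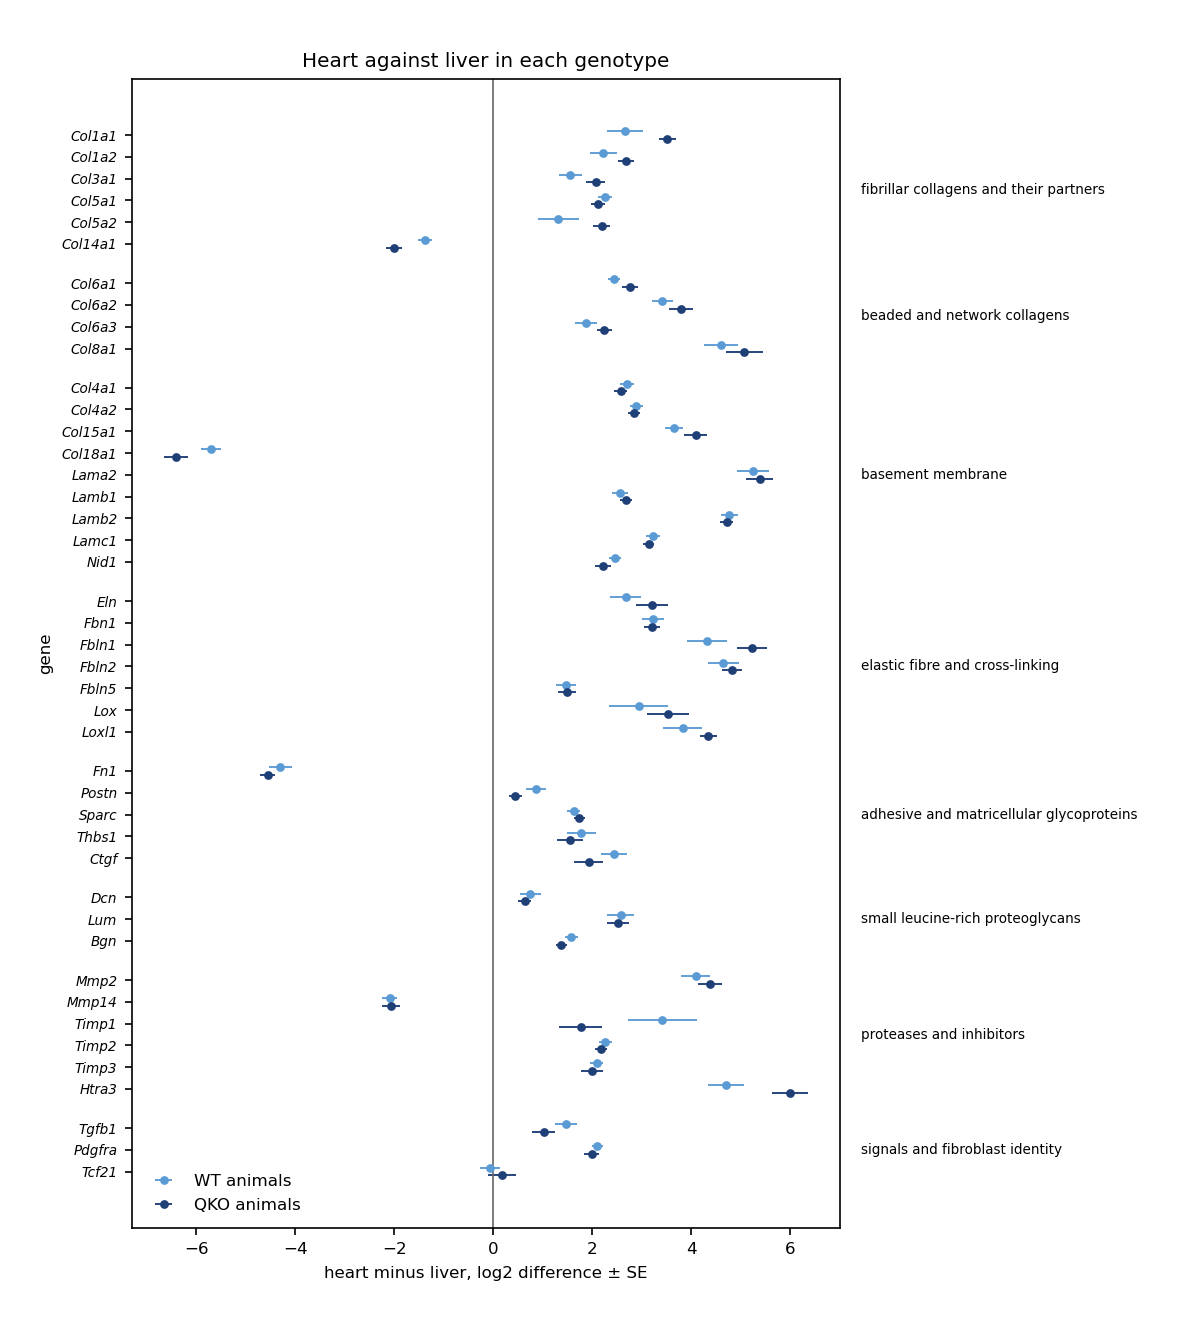
Heart minus liver log2 difference (x axis) with its standard error for each of the 43 genes (y axis, grouped by role), in 4 WT animals (light blue) and 4 QKO animals (dark blue). In both genotypes 38 genes lie right of 0 beyond the threshold and Col14a1, Col18a1, Fn1 and Mmp14 lie left of it, with Tcf21 near 0.

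Among the fibrillar collagens and their partners 5 of 6 genes were higher in heart in each genotype and 1, Col14a1, was lower. Col3a1 encodes the only chain of collagen III, the fine fibril of soft tissue. It had 26.4, 22.9, 24.2 and 47.4 CPM in the WT livers and 78.7, 107, 87.5 and 81.2 CPM in the WT hearts, a log2 difference of 1.56 (SE 0.23, adjusted p = 0.000103). Every WT heart was above every WT liver, although WT liver 4 stood apart from the other livers. In QKO animals the log2 difference was 2.07 (SE 0.19, adjusted p = 5.04e-07). Col1a1 and Col1a2, the chains of collagen I, differed by 2.66 (SE 0.36) and 2.23 (SE 0.27) on the log2 scale in WT and by 3.52 (SE 0.17) and 2.69 (SE 0.16) in QKO. Col5a1, which starts fibril assembly as part of collagen V, differed by 2.26 (SE 0.14) in WT. The other collagen V chain, Col5a2, had 3.80, 3.08, 3.91 and 14.01 CPM in the WT livers and 14.3, 16.2, 16.98 and 13.8 CPM in the WT hearts. WT liver 4 thus overlapped the hearts, and the log2 difference in WT was 1.32 (SE 0.42, adjusted p = 0.0151).

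Col14a1 encodes a collagen that sits on the surface of fibrils. It had 55.4, 43.1, 44.8 and 60.4 CPM in the WT livers and 20.7, 19.7, 17.2 and 19.9 CPM in the WT hearts, a log2 difference of -1.38 (SE 0.14, adjusted p = 3.54e-06). In QKO animals the livers had 54.9, 49.4, 45.0 and 69.0 CPM and the hearts 14.7, 10.3, 15.7 and 12.7 CPM, a log2 difference of -2.0 (SE 0.16, adjusted p = 1.73e-07). All livers were above all hearts in both genotypes.

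The beaded and network collagens were all higher in heart, 4 of 4 in each genotype. Col6a1, Col6a2 and Col6a3 encode the chains of collagen VI, the beaded filament around cells, and their log2 differences in WT were 2.45 (SE 0.12), 3.42 (SE 0.21) and 1.88 (SE 0.22). In QKO they were 2.77 (SE 0.16), 3.79 (SE 0.24) and 2.25 (SE 0.16). Col8a1, a short-chain network collagen of vessels and heart, had 0.270 to 0.966 CPM in WT liver and 12.96 to 15.4 CPM in WT heart. Its log2 difference of 4.6 (SE 0.34, adjusted p = 3.70e-07) in WT and 5.08 (SE 0.37, adjusted p = 5.75e-08) in QKO was the largest in favour of heart among the collagens of the list.

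Of the 9 basement membrane genes 8 were higher in heart and 1 was lower, in each genotype. Lama2, the laminin alpha chain of muscle basement membrane, had 3.31, 1.90, 1.93 and 4.94 CPM in the WT livers and 119, 118, 107 and 108 CPM in the WT hearts. The groups were far apart, and the log2 difference of 5.25 (SE 0.32, adjusted p = 6.89e-08) was the largest in favour of heart among the 43 genes in WT. In QKO it was 5.39 (SE 0.27, adjusted p = 1.07e-09), next to Htra3. Its partner Lamb2, the beta chain of neuromuscular and vascular laminins, was next among the basement membrane genes, with 4.77 (SE 0.17) in WT and 4.72 (SE 0.13) in QKO. Lamb1 and Lamc1, the beta and gamma chains shared by most laminins, differed by 2.57 (SE 0.16) and 3.23 (SE 0.15) in WT, and the linker nidogen (Nid1) by 2.46 (SE 0.12). In QKO these differences were 2.68 (SE 0.12), 3.14 (SE 0.12) and 2.22 (SE 0.16). Col4a1 and Col4a2, the main chains of collagen IV, differed by 2.70 (SE 0.14) and 2.89 (SE 0.13) in WT and by 2.58 (SE 0.13) and 2.84 (SE 0.12) in QKO.

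Col15a1 and Col18a1 encode related basement membrane collagens, and their log2 differences had opposite signs. Col15a1 had 2.30 to 3.91 CPM in WT liver and 30.8 to 40.7 CPM in WT heart, with a log2 difference of 3.66 (SE 0.18, adjusted p = 1.5e-08). Col18a1, the source of endostatin, had 253, 307, 266 and 249.2 CPM in the WT livers and 5.46, 5.76, 5.30 and 3.90 CPM in the WT hearts. The log2 difference of Col18a1 was -5.71 (SE 0.20, adjusted p = 2.21e-09) in WT and -6.41 (SE 0.24, adjusted p = 8.09e-11) in QKO, the largest size of any of the 43 genes in each genotype.

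All 7 elastic fibre and cross-linking genes were higher in heart in both genotypes. The fibulins Fbln2 and Fbln1, which bind elastin and basement membrane proteins, led the group in WT, with 4.65 (SE 0.31) and 4.32 (SE 0.40) on the log2 scale, and Fbln1 led in QKO with 5.23 (SE 0.31). Fbln1 had 1.00, 0.583, 1.09 and 2.84 CPM in the WT livers against 27.7, 24.9, 24.1 and 31.7 CPM in the WT hearts. Fbln5, which guides elastin onto microfibrils, showed the smallest difference of the group, 1.47 (SE 0.20) in WT and 1.5 (SE 0.18) in QKO. The microfibril gene Fbn1 differed by 3.23 (SE 0.23) in WT, elastin itself (Eln) by 2.68 (SE 0.31), and the lysyl oxidase family member Loxl1 by 3.83 (SE 0.40). In QKO they differed by 3.21 (SE 0.17), 3.21 (SE 0.32) and 4.35 (SE 0.17). An antisense gene, Gm9913, covers 20.1% of the exon bases of Fbn1, and reads from the opposite strand could not be told apart where strand was not used in counting. Lox had 0 to 0.205 CPM in WT liver and 0.705 to 1.59 CPM in WT heart, few counts in either tissue, with a log2 difference of 2.94 (SE 0.60, adjusted p = 0.00102).

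Among the 5 adhesive and matricellular glycoproteins 4 were higher in heart and Fn1 was lower. Fn1 had 604, 439, 598 and 433 CPM in the WT livers and 31.3, 24.5, 28.1 and 20.4 CPM in the WT hearts. The livers were above the hearts throughout, and the log2 difference was -4.30 (SE 0.23, adjusted p = 2.68e-08) in WT and -4.56 (SE 0.16, adjusted p = 4.01e-11) in QKO. Periostin (Postn), a marker of activated fibroblasts, differed least among the called genes of the group, with 0.86 (SE 0.20, adjusted p = 0.00257) in WT and 0.45 (SE 0.13, adjusted p = 0.00727) in QKO. In QKO its livers ran from 12.2 to 14.11 CPM and its hearts from 14.1 to 21.6 CPM, with an overlap in the lowest heart. Ctgf (Ccn2), a secreted target of TGF-beta and YAP signalling, differed by 2.44 (SE 0.26) in WT, thrombospondin 1 (Thbs1), an activator of latent TGF-beta, by 1.78 (SE 0.29), and Sparc by 1.63 (SE 0.13). Their differences in QKO were 1.93 (SE 0.29), 1.56 (SE 0.26) and 1.74 (SE 0.11). The antisense gene Gm15270 covers 23.2% of the exon bases of Ctgf.

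The small leucine-rich proteoglycans, which coat collagen fibrils, were higher in heart in 3 of 3 genes. Dcn had 173, 104, 96.8 and 114 CPM in the WT livers and 188, 182, 242 and 202 CPM in the WT hearts, so the groups were apart by a small gap. Its log2 difference was 0.75 (SE 0.21, adjusted p = 0.00722) in WT and 0.64 (SE 0.13, adjusted p = 0.000501) in QKO. Lumican (Lum) differed by 2.58 (SE 0.27) and biglycan (Bgn) by 1.58 (SE 0.13) in WT, and by 2.52 (SE 0.22) and 1.38 (SE 0.12) in QKO.

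Of the proteases and inhibitors 5 of 6 were higher in heart. Mmp14, which activates pro-Mmp2 at the cell surface, had 6.81, 7.94, 7.48 and 7.41 CPM in the WT livers and 2.15, 1.58, 1.52 and 1.62 CPM in the WT hearts. It was lower in heart throughout, by a log2 difference of -2.09 (SE 0.15, adjusted p = 2.50e-07) in WT and -2.06 (SE 0.18, adjusted p = 3.03e-07) in QKO. Mmp2, the secreted gelatinase, went the other way, with 0.693 to 2.25 CPM in WT liver and 20.7 to 24.7 CPM in WT heart and a log2 difference of 4.09 (SE 0.29, adjusted p = 2.69e-07). Htra3, a secreted serine protease, differed by 4.70 (SE 0.36) in WT and 6.00 (SE 0.36) in QKO, where its livers had 0.126, 0.638, 0.234 and 0.504 CPM and its hearts 18.8, 19.5, 30.4 and 27.7 CPM. Among the inhibitors, Timp2 differed by 2.27 (SE 0.13), Timp3 by 2.09 (SE 0.13) and the low-level Timp1 by 3.42 (SE 0.69) in WT, and by 2.18 (SE 0.13), 2.0 (SE 0.23) and 1.77 (SE 0.43) in QKO. Syn3, on the other strand, covers 21.3% of the exon bases of Timp3.

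Of the 3 genes for signals and fibroblast identity, Tgfb1, the growth factor, and Pdgfra, the receptor that marks fibroblasts, were higher in heart. Pdgfra had 6.98, 5.49, 5.53 and 6.41 CPM in the WT livers and 25.1, 25.2, 26.1 and 26.9 CPM in the WT hearts, a log2 difference of 2.10 (SE 0.11, adjusted p = 2.63e-08). Tgfb1 differed by 1.47 (SE 0.23, adjusted p = 0.000134) in WT and 1.02 (SE 0.23, adjusted p = 0.00125) in QKO. Tcf21, a transcription factor of cardiac fibroblasts and hepatic stellate cells, had 1.55, 1.29, 1.402 and 1.66 CPM in the WT livers and 1.31, 1.24, 1.84 and 1.25 CPM in the WT hearts. The tissues overlapped, and the log2 difference of Tcf21 was -0.06 (SE 0.20, adjusted p = 0.802) in WT and 0.18 (SE 0.28, adjusted p = 0.579) in QKO.

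Ratios of chains within a library do not depend on library scaling. Of 13 pairs of related genes tested between heart and liver over 8 animals (exact two-sided sign-flip test, adjusted over 40 comparisons), 10 differed, each with p = 0.00781, the smallest that the sign flips of 8 animals can give, and adjusted p = 0.0312. Counts were taken per kb of the longest coding transcript, and the size of a ratio, unlike its difference between tissues, rests on that length. Among the chains of collagen VI, Col6a1 to Col6a2 stood at 1.07 in heart and 2.23 in liver, and Col6a3 to Col6a2 stood at 0.509 in heart and 1.52 in liver. Lamb1 to Lamb2 was 0.305 in heart and 1.33 in liver, so that Lamb2 was the more abundant beta chain in heart. With the union of exons as length the liver ratio became 0.836, and the heart ratio 0.192.

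The ratio of Col15a1 to Col18a1 was 9.27 in heart and 0.00915 in liver, the widest contrast of the 13 pairs. Col3a1 to Col1a1 was 4.12 in heart and 10.6 in liver. The collagen IV chains, which share a start region, differed least of the 10 pairs that passed, with Col4a1 to Col4a2 at 1.58 in heart (range 1.45 to 1.80) and 1.85 in liver (range 1.58 to 2.27). The proteoglycan ratio of Lum to Dcn was 0.112 in heart and 0.0301 in liver, and Timp2 to Mmp2 was 1.11 in heart and 4.75 in liver. Col1a1 to Col1a2 was 0.415 in heart and 0.259 in liver (exact sign-flip p = 0.0156, adjusted p = 0.0568), Col5a1 to Col5a2 1.18 and 0.964 (exact p = 0.312, adjusted p = 0.658), and Timp3 to Timp2 2.81 and 3.14 (exact p = 0.117, adjusted p = 0.293), and these did not pass. Between genotypes 0 of 13 pairs passed in liver and 0 of 14 in heart by the exact permutation test, where the smallest p that 70 relabellings allow is 0.0286, so that a single pair could not pass after adjustment over the 40 comparisons. At an unadjusted p under 0.05 there were 0 pairs in either tissue.

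**Figure D3:**
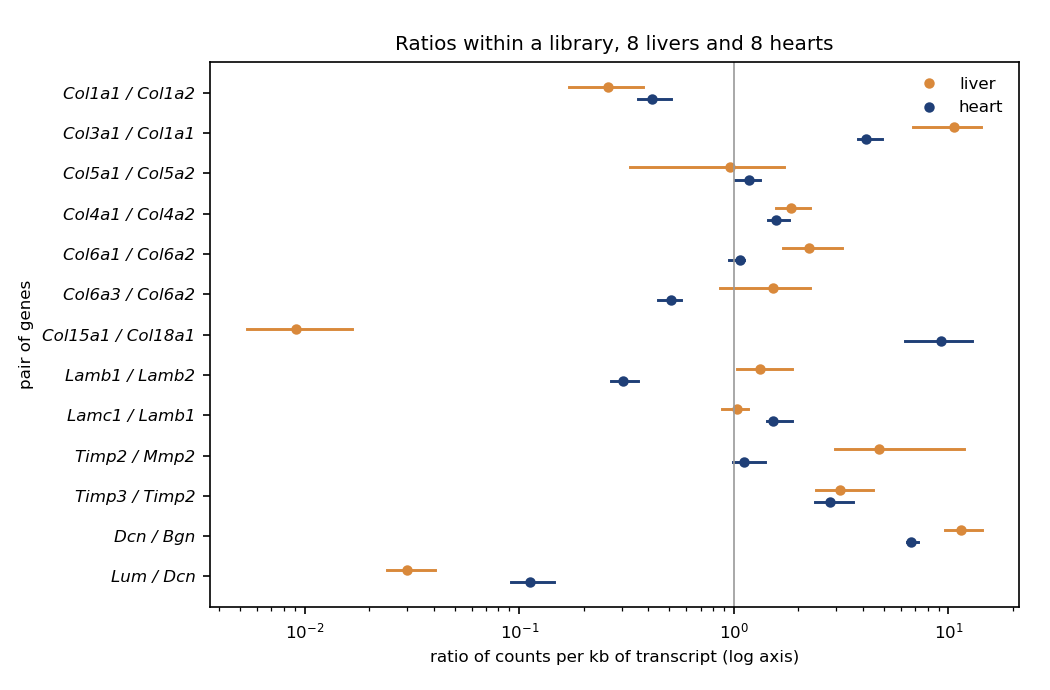
Ratio of counts per kb of the longest coding transcript of 2 genes within a library (x axis, log scale) for 13 pairs (y axis). Points are the geometric mean and lines the lowest to highest of 8 livers (orange) and 8 hearts (dark blue). Col15a1 to Col18a1 is farthest apart, at 0.00915 in liver and 9.27 in heart.

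The comparison of QKO with WT liver asks whether loss of the reductases altered matrix genes there. In liver 0 of the 41 genes that passed the expression filter reached an adjusted p under 0.05 (edgeR), where 0.0846% of all 17738 genes tested did, and limma-voom and DESeq2 called 0 as well. Lox and Timp1 did not pass the filter. At an unadjusted p under 0.05 there were 4 genes, where 3.29% of all genes were, and all 4 were lower in QKO, where 1.70% of all genes were. With 1 library left out this number ran from 0 without WT liver 4 to 6 without WT liver 2, WT liver 3 or QKO liver 2. It was 2 without QKO liver 3 or QKO liver 4. Limma-voom and the animal series as a term also gave 2, and all 16 libraries in 1 fit gave 6. The libraries of 0 genes separated by genotype, where 1.07% of all genes lay wholly lower in QKO and 1.05% wholly higher. The log2 difference, QKO minus WT, was below 0 for 28 of the 41 genes with a median of -0.0641, against -0.00592 over all genes. Without WT liver 4, 17 of 41 were below 0 with a median of 0.0422, and without WT liver 2, 31 of 41 with a median of -0.154. Without QKO liver 3, 21 of 41 were below 0 with a median of -0.00325.

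The 6 genes with the lowest p in liver were all higher in WT liver 4 than in any other WT liver. Fbln1 had 1.00, 0.583, 1.09 and 2.84 CPM in WT and 0.379, 0.969, 0.254 and 0.480 CPM in QKO, a log2 difference of -1.4 (SE 0.51, adjusted p = 1.00). Htra3 had 0.777, 0.396, 0.949 and 1.76 CPM in WT and 0.126, 0.638, 0.234 and 0.504 CPM in QKO, a log2 difference of -1.37 (SE 0.53). Col1a1 had 2.54, 1.83, 3.02 and 7.36 CPM in WT and 2.34, 2.33, 1.85 and 1.41 CPM in QKO, a log2 difference of -0.90 (SE 0.38). In each of these genes the genotypes overlapped, and the adjusted p was 1.00, as it was for the next 3. Col5a2 had 2.77, 3.80, 2.20 and 3.74 CPM in the QKO livers, close to 3 of the WT livers listed above, and a log2 difference of -1.0 (SE 0.44). Col3a1 had 24.8, 25.6, 16.4 and 18.7 CPM in the QKO livers and a log2 difference of -0.51 (SE 0.24). Eln had 0.368, 0.484, 0.399 and 0.997 CPM in WT and 0.115, 0.356, 0.429 and 0.386 CPM in QKO, a log2 difference of -0.83 (SE 0.46).

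WT liver 2 was the lowest WT liver for 27 of the 43 genes, and QKO liver 3 the lowest QKO liver for 24. WT liver 4 was the highest WT liver for 29 of the 43 genes. The 9 fibroblast markers without Gsn summed to 16.7 CPM in it, against 3.19 to 7.46 CPM in the other 7 livers, and adipocyte markers to 29.8 CPM against 1.12 to 5.96 CPM. Its stellate cell markers, at 196 CPM, were the lowest of the 8 livers. Without WT liver 4, 0 of the 41 genes had an unadjusted p under 0.05. The log2 difference of Col1a1 then became -0.32, that of Col5a2 -0.20, of Col3a1 -0.20, of Eln -0.40, of Fbln1 -0.76 and of Htra3 -0.90. Without WT livers 3 and 4, 1 of 42 tested genes had an unadjusted p under 0.05 and the median was 0.0440. The part of these markers in the values of the 43 genes in liver was not tested.

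By role in liver, the 4 beaded and network collagens and the 6 tested elastic fibre genes were all below 0 in the point estimate, with medians of -0.347 and -0.409, and 6 of the 9 basement membrane genes were above 0, with a median of 0.107. Among the basement membrane genes Col4a1 had 16.5, 19.7, 20.5 and 21.5 CPM in WT and 23.95, 19.1, 24.1 and 25.8 CPM in QKO livers, which overlap. None of these passed the threshold. Without WT liver 4 the elastic fibre genes no longer lay on 1 side: Fbn1 was at 0.04, Fbln2 at 0.14, Fbln5 at 0.05 and Loxl1 at 0.19, with Eln and Fbln1 below 0 as given above. The beaded and network collagens then had smaller values, -0.22 for Col6a1, -0.15 for Col6a2, -0.07 for Col6a3 and -0.43 for Col8a1.

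**Figure D4:**
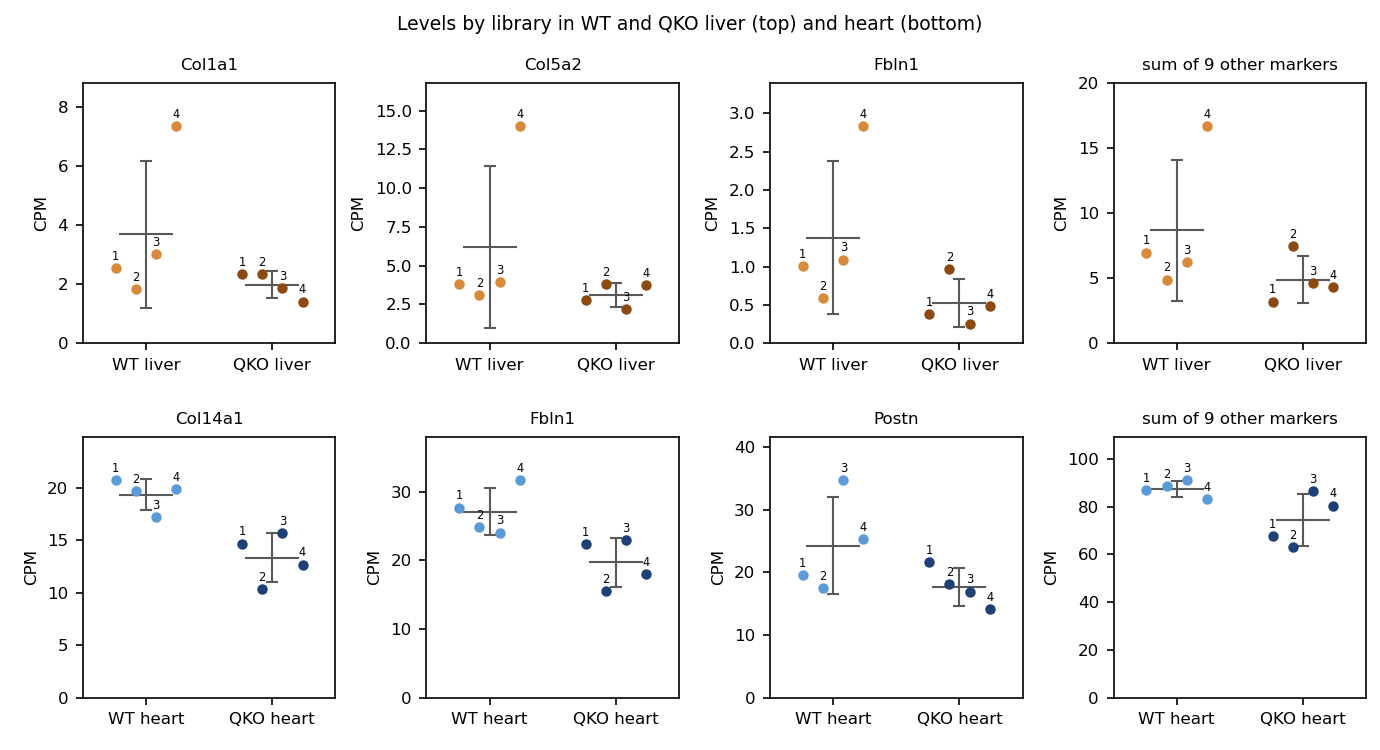
CPM by library (points, numbered by replicate) with the mean and SD of 4 libraries (horizontal and vertical lines) in WT and QKO liver (top) and heart (bottom), for 3 genes each and for the sum of 9 fibroblast markers outside the list. WT liver 4 stands above the other livers in each top panel, and Col14a1 and Fbln1 do not overlap between WT and QKO heart.

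The same comparison in heart gave values closer to the threshold. In heart 0 of 43 genes reached an adjusted p under 0.05 (edgeR), where 0.165% of all 16974 genes did. At an unadjusted p under 0.05 there were 9 genes, where 7.19% of all genes were, and all 9 were lower in QKO, where 3.99% of all genes were. With 1 library left out this number ran from 5 without WT heart 3 or QKO heart 4 to 10 without WT heart 2, WT heart 4 or QKO heart 3. It was 10 with the animal series as a term and 3 with all 16 libraries in 1 fit. The WT and QKO hearts did not overlap for 2 genes, Col14a1 and Fbln1, each lower in QKO, where 2.37% of all genes lay wholly lower and 2.30% wholly higher. The log2 difference was below 0 for 30 of 43 genes with a median of -0.0639, against -0.00134 over all genes. The median was -0.0206 without QKO heart 2, -0.128 without QKO heart 3, -0.109 without WT heart 4 and -0.0997 without QKO heart 1.

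Col14a1 had 20.7, 19.7, 17.2 and 19.9 CPM in the WT hearts and 14.7, 10.3, 15.7 and 12.7 CPM in the QKO hearts. The gene lies on the plus strand at chr15:55307750-55520803 on GRCm38. Every QKO heart was below every WT heart, and the log2 difference was -0.54 (SE 0.11, adjusted p = 0.108). It was called by DESeq2 (adjusted p = 0.00416), with no filter on low counts (adjusted p = 0.00100) and with the replicate number as a block (adjusted p = 0.0437), and not by limma-voom (adjusted p = 0.101) or with the series of the animal number as a term (adjusted p = 0.0594). With any 1 library left out the log2 difference stayed between -0.63 and -0.44 and the adjusted p between 0.0669 and 0.352, and over all alternatives the adjusted p ran from 0.00100 to 0.741. Without the replicate 4 hearts, which had little ribosomal RNA, the log2 difference was -0.50 (SE 0.13, adjusted p = 0.296).

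Fbln1, on the plus strand at chr15:85205949-85286535, had 27.7, 24.9, 24.1 and 31.7 CPM in the WT hearts and 22.4, 15.5, 23.0 and 18.0 CPM in the QKO hearts, again with no overlap. Its log2 difference was -0.47 (SE 0.12, adjusted p = 0.326), and it was called with no filter on low counts (adjusted p = 0.00903) and not by DESeq2 (adjusted p = 0.0782), with a range of 0.00903 to 1.00 over all alternatives. Without the replicate 4 hearts the log2 difference of Fbln1 was -0.33 (SE 0.13, adjusted p = 0.599).

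Col18a1 had 5.46, 5.76, 5.30 and 3.90 CPM in WT and 5.02, 2.65, 3.43 and 3.16 CPM in QKO hearts, a log2 difference of -0.52 (SE 0.18, adjusted p = 0.655). Timp1, an inhibitor often raised in injury, had 0.620, 0.953, 0.953 and 0.431 CPM in WT and 0.174, 0.460, 0.452 and 0.290 CPM in QKO hearts, a log2 difference of -1.04 (SE 0.37, adjusted p = 0.660). Both genes overlapped between the genotypes.

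Bgn had 39.4, 37.6, 51.6 and 43.3 CPM in WT and 38.7, 37.2, 35.4 and 33.2 CPM in QKO hearts, a log2 difference of -0.25 (SE 0.09, adjusted p = 0.660). Postn had 19.5, 17.5, 34.7 and 25.3 CPM in WT and 21.6, 18.1, 16.9 and 14.1 CPM in QKO hearts, a log2 difference of -0.47 (SE 0.18, adjusted p = 0.660). WT heart 3 was the highest for Bgn and Postn, and without it the log2 differences were -0.16 and -0.26. Col8a1 (-0.19, SE 0.08), Timp2 (-0.18, SE 0.07) and Fn1 (-0.28, SE 0.12) were the other genes with an unadjusted p under 0.05. The chains of collagen I had small values, -0.05 (SE 0.09) for Col1a1 and 0.00 (SE 0.09) for Col1a2, and collagen III had -0.01 (SE 0.14).

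Sums of cell type markers were compared between the heart groups. The 9 fibroblast markers without Gsn summed to 83.2 to 91.1 CPM in WT and 63.2 to 86.6 CPM in QKO hearts, with overlap. With Gsn, 10 of 10 fibroblast markers were below 0, with a median log2 difference of -0.176, and 0 passed the adjusted threshold. At an unadjusted p under 0.05 (edgeR) there were 3 of them, all lower in QKO, where 3.99% of all genes were. Cardiomyocyte markers summed to 18100 to 19900 CPM in WT and 21600 to 22900 CPM in QKO hearts. Macrophage markers summed to 77 to 98.2 CPM and 57.0 to 76.9 CPM, in both cases without overlap. All 10 cardiomyocyte markers were above 0, 3 lay wholly higher in QKO, where 2.30% of all genes did, and 1 passed the adjusted threshold, where 0.165% did. Of the 9 tested macrophage markers 8 were below 0 and 4 lay wholly lower in QKO, where 2.37% of all genes did. At an unadjusted p under 0.05 (edgeR) there were 6 macrophage markers, all lower, where 3.99% of all genes were. None of the macrophage markers passed the adjusted threshold. Mesothelial markers summed to 5.02 to 6.37 CPM in WT and 3.2 to 5.27 CPM in QKO hearts, and 5 of the 5 tested were below 0, with a median log2 difference of -0.732. Hepatocyte markers summed to 52.4 to 325 CPM in WT and 68.9 to 168 CPM in QKO hearts, with overlap. Their log2 differences were below 0 for 10 of 10, with a median of -0.642. Of the members higher in liver than in heart, Col14a1 was at -0.54, Col18a1 at -0.52, Fn1 at -0.28 and Mmp14 at 0.00 between the heart groups. Skeletal muscle markers summed to 534 to 613 CPM in WT and 640 to 818 CPM in QKO hearts, without overlap. Only 3 of these 10 markers passed the expression filter in heart. The sum thus rests on few of the listed genes and cannot show skeletal muscle tissue in a heart. The log2 differences of those 3 ran from 0.02 to 1.04, and 0 passed the adjusted threshold. QKO heart 2 was the lowest QKO heart for 22 of the 43 genes and had the lowest sum of fibroblast markers. The part of these markers in the values of the 43 genes was not tested.

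**Figure D5:**
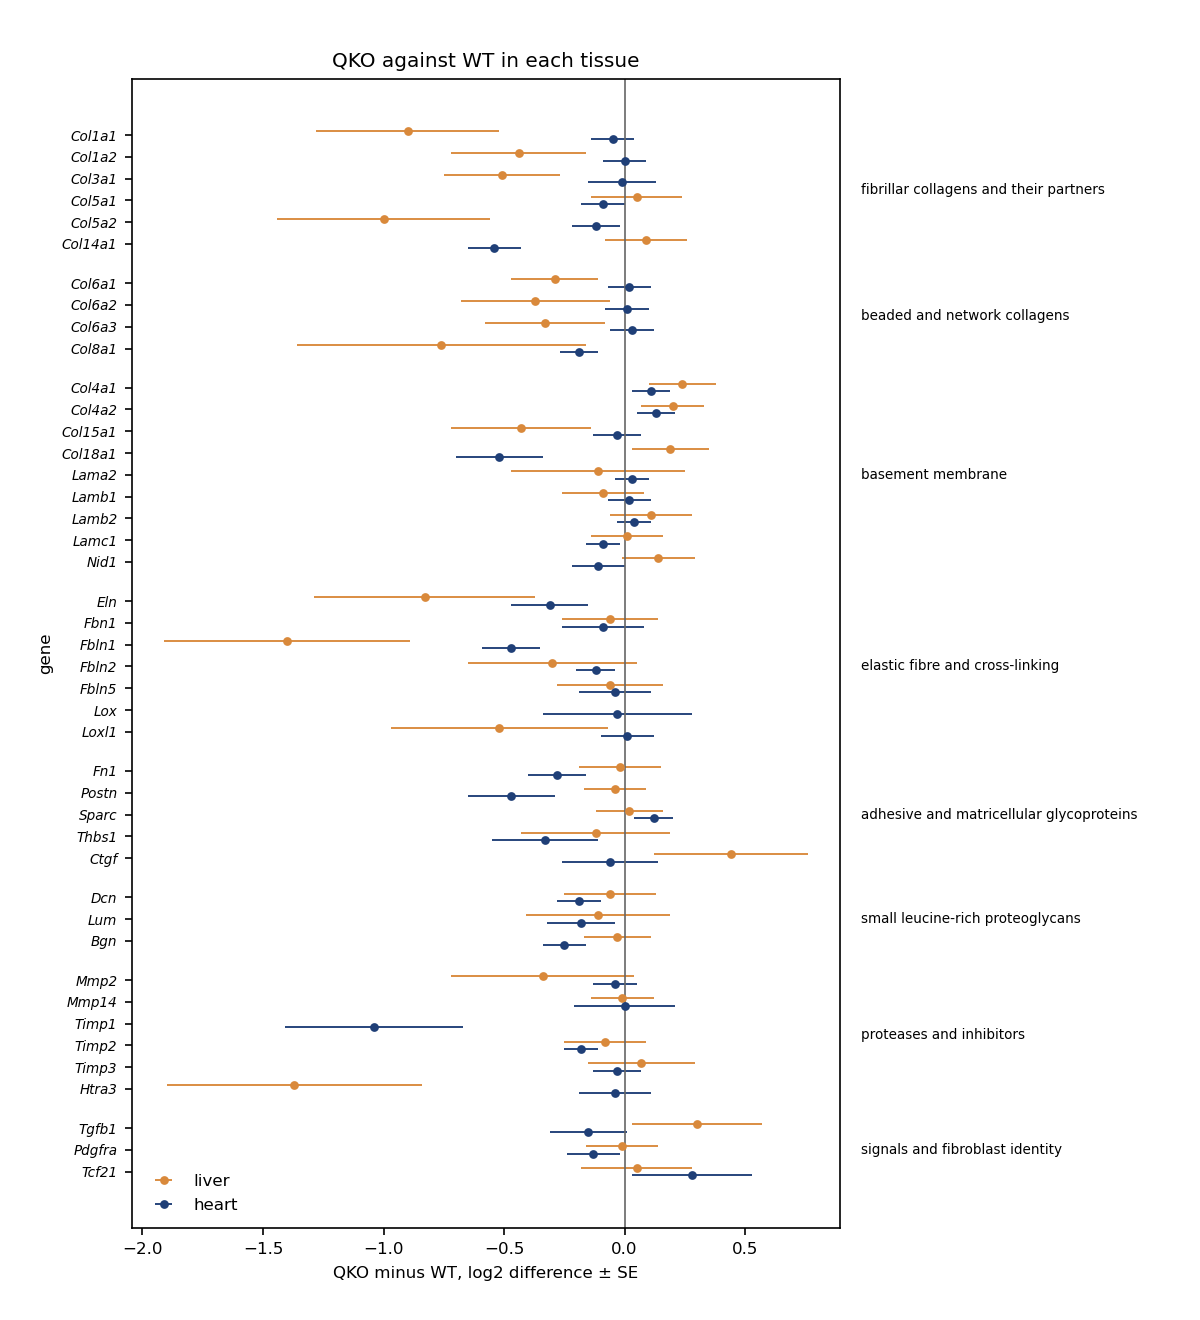
QKO minus WT log2 difference (x axis) with its standard error for each gene (y axis, grouped by role) in liver (orange) and heart (dark blue), 4 libraries against 4 in each tissue. None of the genes passed the adjusted threshold, and Fbln1, Htra3, Col5a2 and Col1a1 lie farthest to the left among the liver values. Lox and Timp1 have no liver point because they did not pass the filter.

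The effect of genotype was also compared between the tissues, as the effect in heart minus the effect in liver. Of the 43 genes 0 passed an adjusted p under 0.05 (edgeR), where 0.00511% of all 19587 genes did, and 3 had an unadjusted p under 0.05, where 4.00% of all genes did. The 3 genes were Col14a1 with -0.64 (SE 0.22), Col18a1 with -0.72 (SE 0.27) and Htra3 with 1.28 (SE 0.53), and the adjusted p of each was 1.00. Next came Col1a1 with 0.84 (SE 0.42), Timp1 with -1.66 (SE 0.87) and Postn with -0.44 (SE 0.25). DESeq2 and limma-voom also called 0 of the 43. The number under an unadjusted p of 0.05 was 5 without WT liver 1, 6 without WT liver 2 and 5 without WT liver 3, and 2 to 4 without any other library. The median over the 43 genes was 0.00138.

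Other genes of the matrix pathways, 144 in 8 lists, were followed in the same fits. In WT animals 87 of the 134 tested were higher in heart and 28 lower, where 35.6% and 36.9% of all genes were. In QKO animals the numbers were 86 and 25 of 135, where 37.2% and 37.1% of all genes were. The list counts below are to be read against the same shares, and in WT those of the matrix receptors and the other collagen chains lie nearest to the share of genes higher in heart. Among other laminin and basement membrane genes 9 of 13 were higher and 4 lower in each genotype. The laminin alpha chain Lama5 was higher in WT heart by 4.38 (SE 0.16) on the log2 scale, and Lama1 was lower by a log2 difference of -7.34 (SE 0.33). Of the other proteases and inhibitors 13 of 15 were higher in WT heart, with Timp4, the inhibitor best known from heart, at 7.01 (SE 0.56). Other matricellular genes and proteoglycans included 15 of 22 higher and 3 lower in WT, with versican (Vcan) at 6.05 (SE 0.26) and osteopontin (Spp1) at -5.99 (SE 0.48).

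The matrix receptors were the most mixed list, with 11 of 22 higher and 7 lower in WT heart. Syndecans Sdc1 and Sdc4, heparan sulfate proteoglycans of the cell surface, had log2 differences of -5.77 (SE 0.23) and -4.81 (SE 0.17), and the collagen-binding integrin chain Itga11 3.91 (SE 0.44). Of 15 genes of TGF-beta signalling 10 were higher and 3 lower in WT heart, led by the ligands Tgfb2 at 3.73 (SE 0.32) and Tgfb3 at 2.70 (SE 0.26). Of 22 tested genes of collagen synthesis and processing 14 were higher and 5 lower in WT heart, with the lysyl hydroxylase Plod2 at 3.87 (SE 0.16). The remaining lists had 6 of 13 other collagen chains higher and 3 lower, led by Col4a4 at 4.27 (SE 0.30), and 9 of 12 other elastic fibre genes higher and 2 lower, led by Mfap5 at 5.29 (SE 0.58).

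Between genotypes 0 of the 128 other pathway genes tested in liver, 0 of 132 in heart and 0 of 138 in the comparison of the effects passed the threshold (edgeR). At an unadjusted p under 0.05 there were 6 in liver, where 3.29% of all genes were, and 17 in heart, where 7.19% of all genes were. Those in heart were all lower in QKO, as were 3.99% of all genes. The lowest p among them in heart belonged to Ddr2, a collagen receptor of fibroblasts, with a log2 difference of -0.25 (SE 0.06, adjusted p = 0.269), a gene named after its values were seen.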

How the data were processed

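Ribosomal RNA was depleted from total RNA of flash frozen tissue and the stranded libraries were read as 75-base pairs, per the labels. The authors deposited 1 table of raw counts per gene. The submitters' processing notes name CASAVA, bcl2fastq, FastQC, cutadapt, HISAT2, featureCounts, limma and the mm10 build, while versions, annotation release and strand setting are not given in the sources used here. Of 48709 identifiers, 48349 were matched to GENCODE M21 for symbols and lengths.

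Genes kept by filterByExpr were tested with edgeR 4.0.16 (R 4.3.3) by the quasi-likelihood F test after TMM scaling, with Benjamini-Hochberg adjustment over all genes tested and a threshold of 0.05. The fits were tested on simulated data. Alternatives used DESeq2 1.42.0, limma-voom 3.58.1, other scalings and filters, added terms and left-out libraries. The length alternative for ratios was chosen after seeing the data. Members and lists were chosen with earlier results of these data known. Every member is named, and library values are printed for the 6 members with the lowest p in a genotype comparison and for the largest and smallest tissue differences. The 4 samples of a group are separate animals, per the labels, so p-values set a difference against the spread between animals. The main fits of heart against liver held no term for the animal, and the animal as a block was an alternative. Liver and heart of an animal are paired by the labels, and the deviations of the organs from their group means correlated by 0.0144 to 0.0965 over genes.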

Additional observations from a re-analysis of the deposited data

Results flagged for a closer look

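In 8 of the 172 combinations of a member and a group, 1 library lay far from the other 3 by Dixon's criterion, and chance gives about 1 in 20. In WT liver 4, Col3a1 was at 47.42 CPM against 22.94 to 26.38 CPM, and Col5a2 at 14.01 CPM against 3.079 to 3.914 CPM. Both are fibrillar collagens, and that liver also held the highest sum of fibroblast markers. Tgfb1 was at 1.898 CPM in WT liver 3 against 1.002 to 1.134 CPM in the other WT livers. Among the hearts, Lum at 36.62 CPM and Tcf21 at 1.836 CPM were high in WT heart 3, against 29.73 to 30.65 CPM and 1.244 to 1.311 CPM. Sparc was high in WT heart 2, at 61.19 CPM against 53.14 to 54.2 CPM, and Mmp14 in WT heart 1, at 2.146 CPM against 1.518 to 1.621 CPM. Lamb2 was low in QKO heart 1, at 131.8 CPM against 143.6 to 146.0 CPM in the other QKO hearts.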

How the results depend on the processing

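In liver 0 members passed in any setting run. In heart 1 member passed with DESeq2, 2 with no filter on low counts and 1 with the replicate number as a block, and 0 in the other settings. The same-numbered WT and QKO libraries come from separate animals that share the series of the animal number. Their deviations from the group means correlated by -0.0687 to 0.1213 in liver and 0.0052 to 0.3307 in heart. The highest value, 0.3307, belonged to the replicate 4 hearts, which had little ribosomal RNA. With the animal as a block, 42 members passed in each tissue comparison, and the block changed no call there.

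Over all genes, the liver count of 15 became 59 with DESeq2, 9 with protein-coding genes alone and 44 with all 16 libraries in 1 fit. The heart count of 28 became 63 with DESeq2, 102 with no filter, 50 with the replicate block and 16 with all 16 libraries in 1 fit, and 18 to 25 with 1 library left out, with 18 without QKO heart 2 and without QKO heart 4. The count of 1 for the difference between the effects became 13 with DESeq2, 0 with limma-voom, 2 with no filter, 0 with the replicate block and 5 without WT livers 3 and 4, and 1 to 3 with 1 library left out, with 3 without WT liver 4 and 2 without QKO liver 1 or QKO heart 4. The causes were not tested.

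Tcf21 changed sign without passing the threshold: in WT it was 0.12 with upper-quartile scaling and 0.04 with a filter of 1 CPM in 4 libraries, and in QKO it ran from -0.11 to 0.32 with 1 library left out. Every other tissue value kept its sign and call in each setting where the gene was tested. With the filter of 1 CPM in 4 libraries, Lox and Timp1 were not tested, and 40 of 41 members passed in each tissue comparison. Upper-quartile scaling moved the median of all genes to 0.160 in WT and 0.202 in QKO, and that of the members to 2.63 and 2.44. With 1 animal left out 0 ratios passed. The smallest p that 7 animals allow can pass after adjustment only if nearly every tissue pair reaches it. Counts of Lox, Timp1 and Eln in liver were low, so differences there were not detectable at this depth unless large.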
